A study of Mus musculus with 5 samples.

Results

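Cardiac pericytes, the mural cells of the heart's capillaries, were chosen by their RNA, from the deposited values of the genes named next. A cell was a member if at least 4 of the 7 genes Kcnj8, Vtn, Abcc9, Higd1b, Notch3, Pdgfrb and Cspg4 were detected, if Rgs5 stood at 2 or more on the natural log scale of the deposited values, and if Pdgfra and Ptprc were at 0. The rule took 119 of 10961 cells, a share of 1.09% (exact 95% interval 0.900 to 1.30%). There were 25 members among 1327 cKit+/DDR2+/CD45- cells (1.88%), 8 among 3898 cKit+/DDR2+/CD45+ cells (0.205%), 9 among 3020 cKit+/DDR2- cells of replicate 2 (0.298%) and 77 among 2280 cKit-/DDR2+ cells (3.38%). The 436 cells of cKit+/DDR2- replicate 1 held 0 members, which allows a share of up to 0.688% by a limit of 3 cells, or 0.843% by the exact 95% interval.

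The study profiled interstitial cells of adult mouse hearts that had been sorted on the surface receptors cKit and DDR2, with CD45 used to divide the cells that carried both. Hearts were minced and digested with collagenase, cardiomyocytes were removed, and libraries were made with droplet-based 3-prime chemistry that counts molecules by unique molecular identifiers (UMIs). The groups were cKit+/DDR2+/CD45-, cKit+/DDR2+/CD45+, cKit+/DDR2- and cKit-/DDR2+ cells, with 2 libraries for cKit+/DDR2- and 1 for each of the others. Strain, sex, treatment and the number of hearts are not given in the sources used here, and no genetic change or agent is named for any group.

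Pericytes share the basement membrane of capillaries with the endothelium, which draws them by PDGF-B through the receptor encoded by Pdgfrb, and Notch3 is the Notch receptor typical of mural cells. Kcnj8 and Abcc9 encode the pore (Kir6.1) and the sulfonylurea receptor subunit (SUR2) of the ATP-sensitive potassium channel of vascular mural cells, which couples the cell's metabolic state to its membrane potential. Smooth muscle cells of larger vessels share many of these genes and add a contractile program of Acta2, Tagln and Myh11.

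Within a library, members were set against fibroblast-gate cells (Pdgfra and Col1a1 detected, Cdh5 at 0) and endothelial-gate cells (Cdh5 detected, members left out). These comparisons used the cKit+/DDR2+/CD45- library, with 36 fibroblast-gate and 1185 endothelial-gate cells, and the cKit-/DDR2+ library, with 785 fibroblast-gate and 1286 endothelial-gate cells; the other libraries held too few members. The UMIs of all cells in a gate were added up and given as CPM, the count per 1000000 UMIs of that gate, and the members summed to 211909 UMIs in cKit+/DDR2+/CD45- and 564788 UMIs in cKit-/DDR2+. Cells of a library are not replicates, each of these sorts has 1 library, and the gates were cut on RNA of the same cells. All differences are therefore descriptions without a test, and their exact 95% intervals cover counting error only.

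Over the series, libraries held 436 to 3898 cells and 4047326 to 44847778 UMIs, with medians of 7529 to 10972 UMIs per cell. The cKit+/DDR2+/CD45- library and cKit+/DDR2- replicate 2 stood apart from the others: Xist was at 757 and 496 CPM in them and at no more than 0.0669 CPM elsewhere, and Gm42418 took 10.6% and 9.09% of their UMIs, against 0.980 to 1.39% elsewhere. Ddx3y, a Y-linked gene, was at 58.8 to 98.6 CPM in the other libraries and had no entry in those with high Xist. The cKit+/DDR2+/CD45- and cKit-/DDR2+ libraries, compared below, thus differed in Xist and in Ddx3y. A difference between sorts and any other difference between these libraries cannot be told apart. The libraries of cKit+/DDR2+/CD45+ and cKit+/DDR2- replicate 1 shared 190 cell barcodes, and 0 of the members were among them.

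Kcnj8 and Abcc9 are neighbours on mouse chromosome 6 (GRCm38.p6, RefSeq), at 142564837 to 142571614 for Kcnj8 and 142587862 to 142702766 for Abcc9, with 16.2 kb and 0 annotated genes between them, both on the minus strand. Rgs4 and Rgs5, regulators of G-protein signalling, are neighbours on chromosome 1 with 45.7 kb and 0 genes between them and are read in opposite directions. The 250 bases before the start that the RefSeq promoter table lists for each are shown because the genes of each set are neighbours. Kcnj8, Abcc9 and Rgs5 are genes of the rule and stand high in the members by choice, and Rgs4 alone lies outside it. The windows are chr6:142571615-142571864 (minus strand) for Kcnj8, chr6:142702275-142702524 (minus strand) for Abcc9, chr1:169747643-169747892 (minus strand) for Rgs4 and chr1:169655251-169655500 (plus strand) for Rgs5, each written 5′ to 3′ on the strand of its gene. The start listed for Abcc9 lies inside the span given above, and so does its window. Capitals mark matches, on either strand, to TGGGAA, the core bound by the Notch effector RBPJ, or to ACGTG, a form of the core of the hypoxia response element. Other forms of that core were not searched.
Kcnj8: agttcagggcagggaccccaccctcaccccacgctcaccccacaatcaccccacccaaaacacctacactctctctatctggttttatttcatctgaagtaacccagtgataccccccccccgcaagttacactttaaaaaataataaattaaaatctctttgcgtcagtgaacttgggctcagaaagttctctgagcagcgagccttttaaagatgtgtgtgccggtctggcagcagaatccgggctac
Abcc9: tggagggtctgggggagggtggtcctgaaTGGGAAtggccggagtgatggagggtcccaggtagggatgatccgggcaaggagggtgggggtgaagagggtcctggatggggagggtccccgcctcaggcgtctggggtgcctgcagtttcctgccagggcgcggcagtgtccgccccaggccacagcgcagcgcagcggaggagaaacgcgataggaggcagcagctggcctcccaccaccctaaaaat
Rgs4: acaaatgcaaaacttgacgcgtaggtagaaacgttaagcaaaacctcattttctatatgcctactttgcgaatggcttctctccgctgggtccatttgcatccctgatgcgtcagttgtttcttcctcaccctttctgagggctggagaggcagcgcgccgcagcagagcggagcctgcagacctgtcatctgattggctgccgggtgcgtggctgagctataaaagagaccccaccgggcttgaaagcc
Rgs5: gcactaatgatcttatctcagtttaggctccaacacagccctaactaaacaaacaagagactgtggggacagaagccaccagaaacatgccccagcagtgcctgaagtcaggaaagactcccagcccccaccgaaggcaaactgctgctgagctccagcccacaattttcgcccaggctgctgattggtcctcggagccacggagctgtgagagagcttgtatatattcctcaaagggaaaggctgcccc
The windows held 1 match to the strings searched, a TGGGAA in that of Abcc9. Of 32851 promoter windows of this length, 21.6% hold TGGGAA and 16.6% hold ACGTG. G and C made up 66.8% of the bases in the Abcc9 window and 49.2% in the Kcnj8 window.

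The genes of the rule chose the cells, so their levels are a description and no finding. Rgs5 was at 6111 CPM in cKit+/DDR2+/CD45- members, against 1.94 CPM in fibroblast-gate and 185 CPM in endothelial-gate cells. In cKit-/DDR2+ members Rgs5 was at 7373 CPM, against 13.8 CPM in fibroblast-gate and 541 CPM in endothelial-gate cells. Both subunits of the potassium channel were among the highest of the counted genes. Abcc9 was at 1085 CPM in cKit+/DDR2+/CD45- members and 1052 CPM in cKit-/DDR2+ members, and Kcnj8 was at 628 CPM in cKit+/DDR2+/CD45- members and 1032 CPM in cKit-/DDR2+ members. In fibroblast-gate cells Abcc9 was at 15.5 CPM for cKit+/DDR2+/CD45- and 5.84 CPM for cKit-/DDR2+, and in endothelial-gate cells it was at 76.4 CPM for cKit+/DDR2+/CD45- and 35.8 CPM for cKit-/DDR2+. Pdgfrb was the gene of the rule that fibroblast-gate cells also carried, at 552 CPM in members against 118 CPM in fibroblast-gate cells of cKit+/DDR2+/CD45-, and at 908 CPM against 81.6 CPM in cKit-/DDR2+. The matrix and adhesion protein gene Vtn was at 510 CPM in cKit+/DDR2+/CD45- members and 827 CPM in cKit-/DDR2+ members, and Higd1b at 491 CPM and 662 CPM in those members. Notch3 was at 307 CPM in cKit+/DDR2+/CD45- members and 370 CPM in cKit-/DDR2+ members, and Cspg4, which encodes the NG2 proteoglycan, was the lowest, at 123 CPM and 184 CPM in those members.

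All 7 counted genes were detected in 8 of 25 cKit+/DDR2+/CD45- members and 33 of 77 cKit-/DDR2+ members, and exactly 4 of them in 5 and 19 members of those sorts. Just outside the rule lay 8 cKit+/DDR2+/CD45- cells and 12 cKit-/DDR2+ cells with 3 of the genes. Their median Rgs5 value was 3.48 in cKit+/DDR2+/CD45- and 3.0 in cKit-/DDR2+, whereas the members' medians were 4.07 in cKit+/DDR2+/CD45- and 4.25 in cKit-/DDR2+. Detection of Pdgfra kept out 1 cell of cKit+/DDR2+/CD45- and 11 cells of cKit-/DDR2+.

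The label was checked against markers of other cell types, and endothelial transcripts stood out. Cdh5, the gene of VE-cadherin that defines endothelium, was detected in 16 of 25 cKit+/DDR2+/CD45- members (64.0%, exact 95% interval 42.5 to 82.0%) and in 50 of 77 cKit-/DDR2+ members (64.9%, 53.2 to 75.5%). A list of 12 endothelial markers summed to 19504 CPM in cKit+/DDR2+/CD45- members against 19145 CPM in endothelial-gate cells, and to 15771 CPM in cKit-/DDR2+ members against 24892 CPM in endothelial-gate cells. In members with Cdh5 at 0 the sum was 3375 CPM for cKit+/DDR2+/CD45- and 3067 CPM for cKit-/DDR2+, and in fibroblast-gate cells it was 341 CPM for cKit+/DDR2+/CD45- and 529 CPM for cKit-/DDR2+. Pecam1, the gene of an endothelial junction protein, was at 0 of 36743 UMIs in cKit+/DDR2+/CD45- members with Cdh5 at 0 and at 3 UMIs (22.7 CPM) in such cKit-/DDR2+ members. In all members it was at 472 CPM for cKit+/DDR2+/CD45- and 345 CPM for cKit-/DDR2+. The part of doublets, attached endothelial cells or free RNA in these values was not tested, and the members with Cdh5 at 0, 9 cells in cKit+/DDR2+/CD45- and 27 in cKit-/DDR2+, are therefore given beside all members.

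Mural and endothelial transcripts were divided unevenly among the members. The summed level of 28 mural genes outside the rule had a median of 13067 CPM per cell in cKit+/DDR2+/CD45- members with Cdh5 at 0, against 5449 CPM in those with Cdh5. In cKit-/DDR2+ the medians were 16193 CPM in members with Cdh5 at 0 and 7112 CPM in those with Cdh5. Members with Cdh5 detected were also deeper, with a median of 10568 UMIs against 3993 UMIs at Cdh5 of 0 in cKit+/DDR2+/CD45-, and 8213 UMIs against 4883 UMIs in cKit-/DDR2+. In all members of these libraries, markers of other cell types summed to less than the endothelial markers. Smooth muscle contractile genes came nearest, at 4167 CPM in cKit+/DDR2+/CD45- members and 5074 CPM in cKit-/DDR2+ members, against 1943 to 2719 CPM in the other gates. In members with Cdh5 at 0 they summed to 12492 and 6285 CPM, above the endothelial sums of 3375 and 3067 CPM in those cells. Fibroblast markers summed to 321 CPM in cKit+/DDR2+/CD45- members and 1239 CPM in cKit-/DDR2+ members, against 50479 CPM and 70176 CPM in the fibroblast-gate cells of those libraries. Macrophage markers summed to 0 CPM in cKit+/DDR2+/CD45- members and 8.85 CPM in cKit-/DDR2+ members, cardiomyocyte markers to 94.4 and 62.0 CPM, Schwann cell markers to 80.2 and 104 CPM, and haemoglobin genes and other red blood cell markers to 9.44 and 432 CPM in those sorts.

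**Figure D1:**
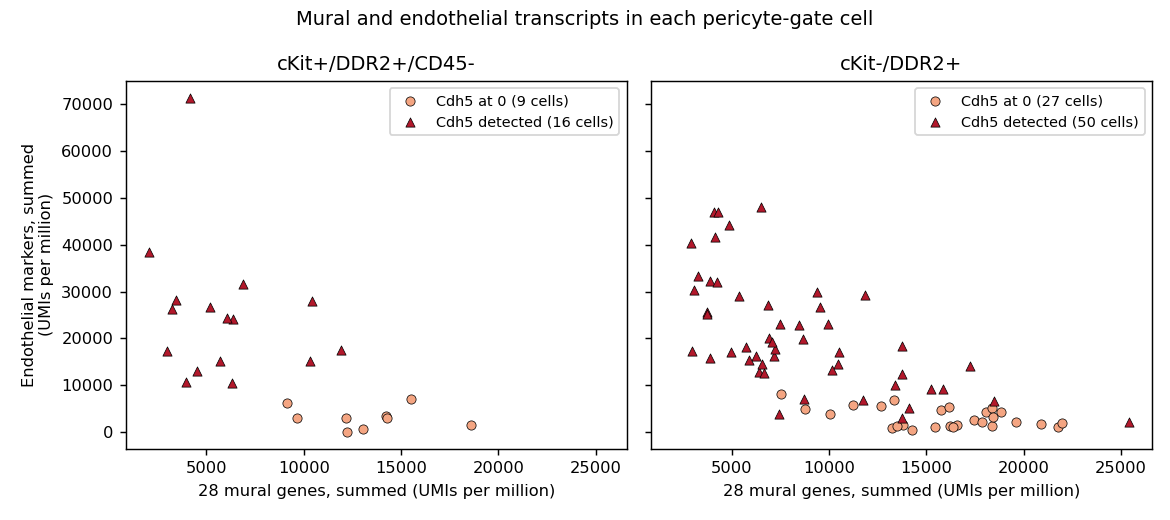
Each point is a member, of cKit+/DDR2+/CD45- at left and cKit-/DDR2+ at right, with the summed CPM of 28 mural genes outside the rule on the horizontal axis and of the endothelial markers on the vertical axis. Members with Cdh5 at 0 (circles) lie low on the vertical axis and mostly to the right, and members with Cdh5 detected (triangles) spread up to 71416 CPM of endothelial markers for cKit+/DDR2+/CD45- and 47994 CPM for cKit-/DDR2+.

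Against fibroblast-gate cells, 473 of 3496 genes measured were at least 2-fold higher in the members of both libraries (13.5%) and 391 were at least 2-fold lower (11.2%). Against endothelial-gate cells the counts were 153 of 3272 genes higher (4.68%) and 61 lower (1.86%). A gene counted as measured with at least 50 CPM and 10 UMIs in either gate in each library, and as 2-fold apart by the log2 ratio of CPM after adding 1. Of 3034 genes measured in both comparisons, 97 were higher than in both gates (3.2%) and 28 were lower than in both (0.923%). These counts include the genes of the rule, which stand apart by choice. Of the 473 and 153 higher genes, 121 and 40 also reached the minimum in the other gate in at least 1 library. The rest could only stand higher, and for the 97 this share was not counted. Within a single library, 21.1% of genes in cKit+/DDR2+/CD45- and 17.2% in cKit-/DDR2+ were higher than in fibroblast-gate cells and 17.2% and 12.7% lower; against endothelial-gate cells, 9.72% in cKit+/DDR2+/CD45- and 6.54% in cKit-/DDR2+ were higher and 7.94% and 5.25% lower. With members at Cdh5 of 0 only, 129 genes were higher and 432 lower than in fibroblast-gate cells, and 109 higher and 430 lower than in endothelial-gate cells. Depth limits these counts: in cKit+/DDR2+/CD45-, 3 UMIs of such members correspond to 81.6 CPM, above the 50 CPM minimum. There, 510 of the 3496 and 402 of the 3272 genes were at 0 in a gate, so a gene can count as lower through a lack of UMIs.

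Mural genes outside the rule stood high. Of 28 listed, 21 were measured against fibroblast-gate cells, 14 of them higher and 1 lower, and 20 against endothelial-gate cells, 15 of them higher and 0 lower. In this and every list, a gene below the minimum in the other gate in both libraries is measured through the members alone and had to stand higher there, so counts and medians of measured genes are descriptions. This held for 10 of the 21 and 10 of the 20 mural genes; of the other 11, 4 (Ndufa4l2, Cox4i2, Mfge8 and Pdzd2) were higher and 1 lower than in fibroblast-gate cells, and of the other 10, 5 (Ndufa4l2, Cox4i2, Mcam, Aspn and Cald1) were higher than in endothelial-gate cells. Over all genes it held for 546 of 3496 and 221 of 3272, and of the rest 121 of 2950 were higher than in fibroblast-gate and 40 of 3051 higher than in endothelial-gate cells. The list's median log2 ratio over fibroblast-gate cells was 3.05 in cKit+/DDR2+/CD45- and 4.30 in cKit-/DDR2+, with genes at 0 in a gate set to the value of 3 UMIs, and the medians of all genes measured were 0.14 and 0.25. Over endothelial-gate cells the list's median was 4.50 in cKit+/DDR2+/CD45- and 3.36 in cKit-/DDR2+, and those of all genes were 0.14 and 0.04. Among members with Cdh5 at 0 the list's medians were higher, at 3.60 and 5.22 over fibroblast-gate cells and 5.92 and 4.16 over endothelial-gate cells in cKit+/DDR2+/CD45- and cKit-/DDR2+. The gene lower than in fibroblast-gate cells was Anpep (aminopeptidase N), at 4.72 CPM in cKit+/DDR2+/CD45- members against 114 CPM and at 17.7 CPM in cKit-/DDR2+ members against 53.8 CPM.

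Rgs4, like Rgs5 a brake on G-protein signalling, had the highest ratio over both gates outside the rule. It was at 241 CPM (51 UMIs) in cKit+/DDR2+/CD45- members, against 1.94 CPM in fibroblast-gate and 1.64 CPM in endothelial-gate cells, a ratio of 147 over the endothelial gate (84.4 to 267). In members of cKit-/DDR2+ it was at 372 CPM (210 UMIs), 247-fold (151 to 432) over 1.5 CPM in fibroblast-gate cells and 83.9-fold (58.7 to 123) over 4.43 CPM in endothelial-gate cells. Its UMIs came from 19 of 25 cKit+/DDR2+/CD45- members and 60 of 77 cKit-/DDR2+ members. Of 10 RGS genes listed, 2 of 3 measured (Rgs3 and Rgs4) were higher than in fibroblast-gate cells and 1 of 2 (Rgs4) higher than in endothelial-gate cells. Measured through the members alone were 2 of the 3 and 1 of the 2, and of the others 0 were higher. Steap4, a metalloreductase gene, was at 236 CPM in cKit+/DDR2+/CD45- members against 1.94 CPM in fibroblast-gate and 4.0 CPM in endothelial-gate cells, and at 556 CPM in cKit-/DDR2+ members against 27.3 CPM and 13.2 CPM in those gates. The 20 genes with the highest ratios over both gates also held Rasl12, Olfr558, Serpini1, Car2 (carbonic anhydrase), Ctsc, Atp1b2 (a subunit of the sodium pump), Aoc3, Daam2, Egflam and Carmn, a long noncoding RNA of smooth muscle. None of the 20 passed 27.3 CPM in another gate of these libraries, below the 50 CPM minimum. All 20 were therefore measured through the members alone and had to stand higher there. Carmn was at 127 CPM in cKit+/DDR2+/CD45- members against 7.76 CPM in fibroblast-gate and 0 in endothelial-gate cells, at least 467-fold higher with the endothelial gate set to 3 UMIs. The odorant receptor gene Olfr558 was at 75.5 CPM in cKit+/DDR2+/CD45- members and 56.7 CPM in cKit-/DDR2+ members, from 6 and 20 cells, and at no more than 0.615 CPM in any other gate of these libraries.

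**Figure D2:**
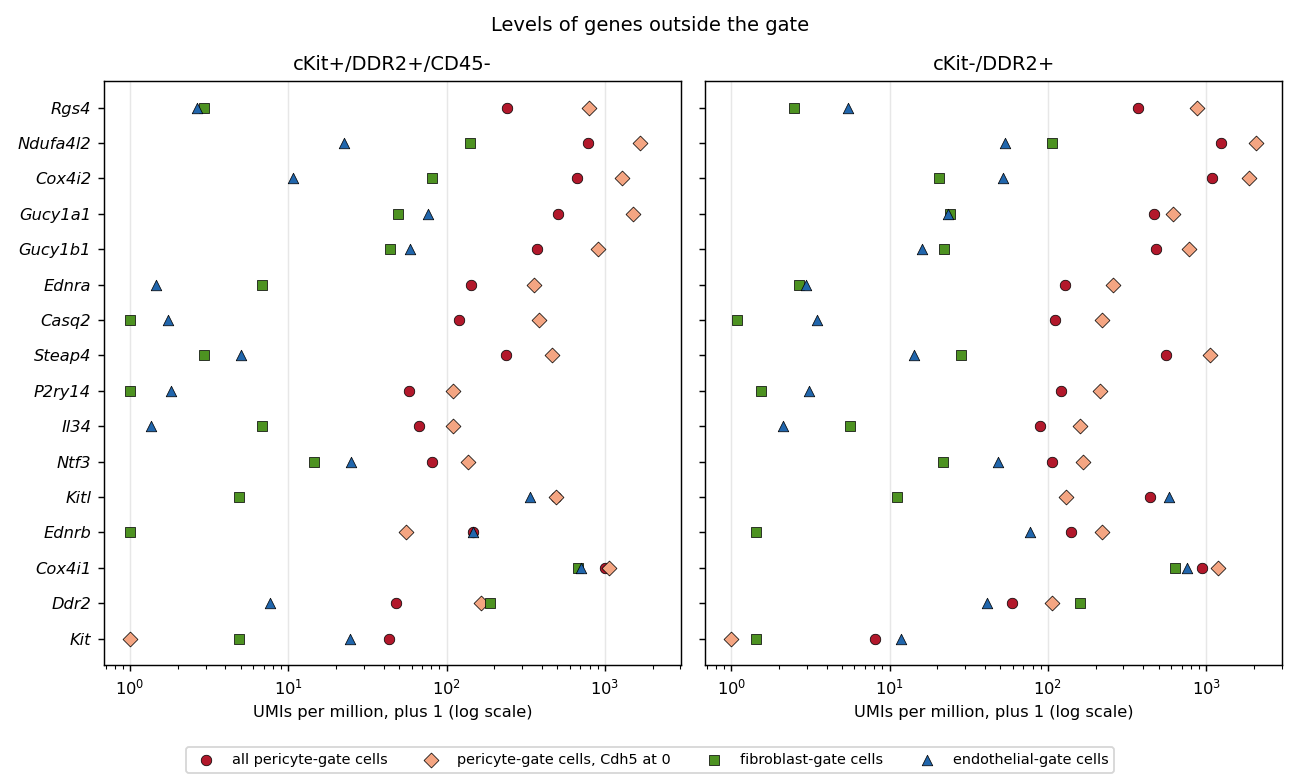
Levels of 16 genes outside the rule, as CPM plus 1 on a log axis, in cKit+/DDR2+/CD45- at left and cKit-/DDR2+ at right; a symbol at 1 stands for 0 UMIs. All members (circles) and members with Cdh5 at 0 (diamonds) lie right of fibroblast-gate (squares) and endothelial-gate cells (triangles) for Rgs4 through Ntf3, and the gates overlap for Kitl, Ednrb, Cox4i1, Ddr2 and Kit.

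Receptors and enzymes that set vessel tone were unevenly high. Of 34 receptors for vasoactive ligands listed, 8 were measured against fibroblast-gate cells, 5 of them higher and 1 (S1pr2) lower, and 8 against endothelial-gate cells, 3 of them higher and 0 lower. Measured through the members alone were 4 and 3 of them. Of the other 4, 1 (S1pr3) was higher than in fibroblast-gate cells, and of the other 5, 0 were higher than in endothelial-gate cells. Ednra, the endothelin receptor of smooth muscle and pericytes, was at 142 CPM (30 UMIs) in cKit+/DDR2+/CD45- members, against 5.82 CPM in fibroblast-gate and 0.455 CPM in endothelial-gate cells. In cKit-/DDR2+ members Ednra was at 127 CPM (72 UMIs), 75.8-fold (45.2 to 133) over fibroblast-gate and 64.7-fold (37.3 to 119) over endothelial-gate cells. The other endothelin receptor, Ednrb, was carried by endothelium too: it was at 146 CPM in members and 145 CPM in endothelial-gate cells of cKit+/DDR2+/CD45-, and at 140 CPM and 75.9 CPM in cKit-/DDR2+. In members with Cdh5 at 0, Ednrb was at 54.4 CPM (2 UMIs) for cKit+/DDR2+/CD45- and 219 CPM for cKit-/DDR2+. P2ry14, a receptor for UDP-sugars, was at 56.6 CPM in cKit+/DDR2+/CD45- members and 120 CPM in cKit-/DDR2+ members, and at no more than 2.09 CPM in the other gates. S1pr3, a receptor for sphingosine 1-phosphate, was 2.51-fold (1.51 to 4.18) over fibroblast-gate cells in cKit+/DDR2+/CD45- and 2.38-fold (1.93 to 2.91) in cKit-/DDR2+. S1pr1, the sphingosine receptor of endothelium, was at 165 CPM in cKit+/DDR2+/CD45- members and 212 CPM in cKit-/DDR2+ members, but at 0 and 7.55 CPM in those with Cdh5 at 0.

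The soluble guanylate cyclase, which makes cyclic GMP in response to nitric oxide, was high in both of its subunits. Gucy1a1 was at 505 CPM in cKit+/DDR2+/CD45- members, 10.4-fold (6.69 to 16.8) over fibroblast-gate and 6.74-fold (5.46 to 8.25) over endothelial-gate cells, and at 466 CPM in cKit-/DDR2+ members, 20.2-fold (16.9 to 24.0) and 20.9-fold (17.2 to 25.4) over those gates. Gucy1b1 was at 373 CPM in cKit+/DDR2+/CD45- members and 480 CPM in cKit-/DDR2+ members, and at 15.0 to 57.4 CPM in the other gates. Of 14 cyclic GMP pathway genes listed, 5 of 7 measured were higher than in fibroblast-gate cells and 4 of 8 were higher than in endothelial-gate cells, with 0 lower in either comparison. Measured through the members alone were 5 of the 7 and 3 of the 8. Of the other 2, 0 were higher than in fibroblast-gate cells, and of the other 5, 2 (Gucy1a1 and Gucy1b1) were higher than in endothelial-gate cells. Mrvi1, a substrate of the cyclic GMP-dependent kinase, was at 84.9 CPM in cKit+/DDR2+/CD45- members and 62.0 CPM in cKit-/DDR2+ members against 0 to 5.41 CPM in the other gates. The kinase gene Prkg1 was at 51.9 CPM in cKit+/DDR2+/CD45- members against 17.5 CPM in fibroblast-gate and 25.5 CPM in endothelial-gate cells. The list's median log2 ratio over fibroblast-gate cells was 1.62 in cKit+/DDR2+/CD45- and 2.69 in cKit-/DDR2+ for all members, and 3.15 and 3.23 for those with Cdh5 at 0.

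Among 30 genes of ion channels, 5 were measured in each comparison, 3 of them higher than in fibroblast-gate and 2 higher than in endothelial-gate cells. Measured through the members alone were 3 and 2 of them, and of the others 0 were higher in either comparison. Ano1, which encodes a calcium-activated chloride channel, was higher than in both gates. Ano1 was at 61.3 CPM in cKit+/DDR2+/CD45- members and 79.7 CPM in cKit-/DDR2+ members, and at no more than 2.21 CPM in the other gates. Kcna5, a voltage-gated potassium channel gene, was higher than in fibroblast-gate cells, at 118 CPM in cKit+/DDR2+/CD45- members and 122 CPM in cKit-/DDR2+ members, but stood at 46.0 and 101 CPM in the endothelial-gate cells of those libraries. Casq2, the calcium store protein calsequestrin, was at 118 CPM in cKit+/DDR2+/CD45- members and 110 CPM in cKit-/DDR2+ members, and at no more than 2.46 CPM in the other gates.

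Contractile genes divided into those spread over the members and those held by few cells. Of 21 listed, 10 of 12 measured were higher than in fibroblast-gate cells and 8 of 13 higher than in endothelial-gate cells, with 0 lower in either comparison. Measured through the members alone were 8 of the 12 and 9 of the 13. Of the other 4 in each comparison, 2 (Tpm2 and Tpm1) were higher than in fibroblast-gate cells and 0 higher than in endothelial-gate cells. Cald1 (caldesmon), a mural gene of wide expression, was at 708 CPM in cKit+/DDR2+/CD45- members and 852 CPM in cKit-/DDR2+ members, and Tpm2 (tropomyosin) at 505 and 531 CPM in those members. Myl9, a myosin light chain gene, was at 94.4 CPM in cKit+/DDR2+/CD45- members and 212 CPM in cKit-/DDR2+ members, against 8.86 to 16.8 CPM in the other gates. In contrast, Acta2 (smooth muscle actin) had 47 UMIs in cKit+/DDR2+/CD45- members, 43 of them in 1 cell, and 160 UMIs in cKit-/DDR2+ members, 54 of them in 1 cell. Tagln (transgelin) had UMIs in 3 of 25 cKit+/DDR2+/CD45- members and 8 of 77 cKit-/DDR2+ members. Myh11 (smooth muscle myosin) was at 269 CPM in cKit+/DDR2+/CD45- members and 4.85 CPM without its top cell, and at 103 CPM in cKit-/DDR2+ members and 58.0 CPM without its top cell. None of these 3 genes was detected in 21 of 25 cKit+/DDR2+/CD45- members and 63 of 77 cKit-/DDR2+ members, and 2 or more in 3 cKit+/DDR2+/CD45- members and 9 cKit-/DDR2+ members. The cell with the most UMIs of the 3 genes, at 135 in cKit+/DDR2+/CD45- and 123 in cKit-/DDR2+, had 0 UMIs of Kcnj8 and of Abcc9. Whether the rule also took smooth muscle cells was not tested.

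**Figure D3:**
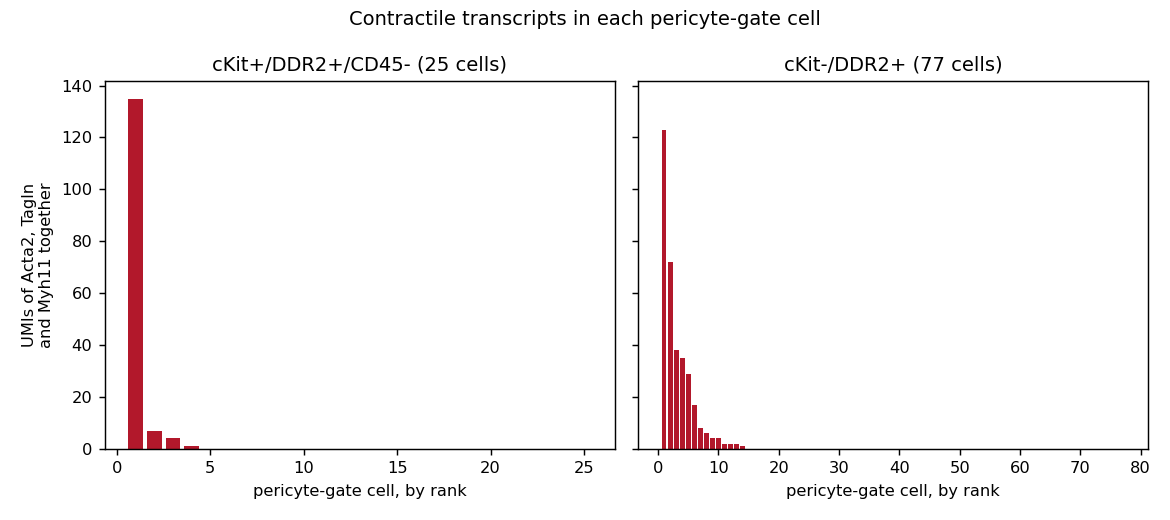
UMIs of Acta2, Tagln and Myh11 together in each member, ordered by rank, for cKit+/DDR2+/CD45- at left and cKit-/DDR2+ at right; each bar is a cell. A single cell holds 135 of the 147 UMIs in cKit+/DDR2+/CD45- and 123 of the 343 UMIs in cKit-/DDR2+, and most members have 0.

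A pair of tissue-restricted paralogs of respiratory chain subunits stood high. Ndufa4l2 (chromosome 10, 127509274 to 127517154), the paralog of Ndufa4 known as a target of hypoxia signalling, was at 779 CPM (165 UMIs) in cKit+/DDR2+/CD45- members, 5.58-fold (4.20 to 7.46) over 140 CPM in fibroblast-gate and 36.3-fold (29.6 to 44.4) over 21.5 CPM in endothelial-gate cells. In cKit-/DDR2+ members it was at 1245 CPM (703 UMIs), 11.8-fold (10.7 to 12.9) over 106 CPM in fibroblast-gate and 23.5-fold (20.8 to 26.6) over 52.9 CPM in endothelial-gate cells. It was detected in 24 of 25 cKit+/DDR2+/CD45- members (96.0%) and 70 of 77 cKit-/DDR2+ members (90.9%), against 52.8% and 53.8% of fibroblast-gate cells in those libraries, which were deeper. With each cell thinned to 2000 UMIs the shares were 75.0% of cKit+/DDR2+/CD45- members and 78.4% of cKit-/DDR2+ members, against 19.4% and 18.1% of fibroblast-gate and 4.02% and 6.85% of endothelial-gate cells.

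Cox4i2 (chromosome 2, 152753916 to 152765039), the paralog of the cytochrome c oxidase subunit gene Cox4i1, was at 665 CPM in cKit+/DDR2+/CD45- members, 8.37-fold (5.87 to 12.2) over fibroblast-gate and 68.4-fold (52.8 to 88.7) over endothelial-gate cells. Among cKit-/DDR2+ members it was at 1080 CPM, 55.5-fold (47.5 to 65.0) over fibroblast-gate and 21.3-fold (18.7 to 24.1) over endothelial-gate cells. Cox4i1 itself was at 1005 CPM in members, 673 CPM in fibroblast-gate and 710 CPM in endothelial-gate cells of cKit+/DDR2+/CD45-, and at 942, 631 and 755 CPM in those of cKit-/DDR2+. Ndufa4 was at 330 CPM in cKit+/DDR2+/CD45- members and 253 CPM in cKit-/DDR2+ members, and at 306 to 488 CPM in the other gates. In members with Cdh5 at 0, Ndufa4 was at 163 CPM for cKit+/DDR2+/CD45-, with its 6 UMIs in 1 of 9 cells, and at 15.1 CPM for cKit-/DDR2+, with 2 UMIs in 27 cells, whereas Ndufa4l2 was at 1660 and 2070 CPM. Of 12 genes in this list, 2 of 9 measured were higher than in fibroblast-gate cells and 3 of 9 (with Cox8a) higher than in endothelial-gate cells.

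Signals between pericytes and endothelium were examined next. Of 18 PDGF, angiopoietin and VEGF genes, 7 of 9 measured were higher and 1 (Pgf) lower than in fibroblast-gate cells, and 1 of 8 (Pdgfa) was higher and 1 (Tek) lower than in endothelial-gate cells. Measured through the members alone were 6 of the 9 and 1 of the 8. Of the other 3, 1 (Nrp1) was higher than in fibroblast-gate cells, and of the other 7, 0 were higher than in endothelial-gate cells. Pdgfa, a PDGF ligand gene, was at 51.9 CPM (11 UMIs) in cKit+/DDR2+/CD45- members, 7.32-fold (3.51 to 13.8) over endothelial-gate cells, and at 103 CPM (58 UMIs) in cKit-/DDR2+ members, 5.60-fold (4.06 to 7.63) over them. Pdgfb, the endothelial ligand of Pdgfrb, was at 151 CPM in cKit+/DDR2+/CD45- members and 154 CPM in cKit-/DDR2+ members, but at 0 and 15.1 CPM in those with Cdh5 at 0. The median log2 ratio of this list over fibroblast-gate cells was 4.01 in cKit+/DDR2+/CD45- and 3.98 in cKit-/DDR2+ for all members, and 0.00 and 1.54 for those with Cdh5 at 0, where 5 and 2 of the 9 genes were at 0 in a gate and set to 3 UMIs. Over endothelial-gate cells it was 0.04 in cKit+/DDR2+/CD45- and -0.72 in cKit-/DDR2+ for all members, and -1.59 and -3.31 for those with Cdh5 at 0.

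Kitl, the ligand of cKit, was at 491 CPM in cKit+/DDR2+/CD45- members against 3.88 CPM (2 UMIs) in fibroblast-gate and 337 CPM in endothelial-gate cells, 1.46-fold (1.19 to 1.77) over the endothelial gate. In cKit-/DDR2+ members it was at 439 CPM, 43.2-fold (34.5 to 54.3) over 10.2 CPM in fibroblast-gate cells and 0.751-fold (0.658 to 0.853) of the 585 CPM in endothelial-gate cells. Members with Cdh5 at 0 had 490 CPM for cKit+/DDR2+/CD45-, from 18 UMIs in 3 of 9 cells, and 128 CPM for cKit-/DDR2+, from 17 UMIs in 11 of 27 cells. The sorted receptor itself gave few UMIs: Kit had 9 UMIs in 4 of 25 cKit+/DDR2+/CD45- members and 4 UMIs in 3 of 77 cKit-/DDR2+ members, and 0 UMIs in members with Cdh5 at 0, which by the limit of 3 UMIs allows up to 81.6 CPM for cKit+/DDR2+/CD45- and 22.7 CPM for cKit-/DDR2+. Kit was at 42.5 CPM in all cKit+/DDR2+/CD45- members, against 3.88 CPM in fibroblast-gate and 23.5 CPM in endothelial-gate cells, and at 7.08 CPM in cKit-/DDR2+ members, against 0.442 CPM and 10.8 CPM in those gates. Ddr2 was at 47.2 CPM in cKit+/DDR2+/CD45- members and 58.4 CPM in cKit-/DDR2+ members, against 186 CPM and 158 CPM in fibroblast-gate cells of those libraries; with Cdh5 at 0 it was at 163 CPM (6 UMIs) for cKit+/DDR2+/CD45- and 106 CPM for cKit-/DDR2+.

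Of 35 angiocrine and trophic factors, 15 were measured against fibroblast-gate cells, 4 of them higher and 7 lower, and 10 against endothelial-gate cells, 2 of them higher and 2 lower. Measured through the members alone were 3 of the 15 and 2 of the 10. Of the other 12, 1 (Cxcl12) was higher than in fibroblast-gate cells, and of the other 8, 0 were higher than in endothelial-gate cells. The factors higher than in both gates were Il34 and Ntf3. Il34, an alternative ligand of the CSF1 receptor of macrophages, was at 66.1 CPM (14 UMIs) in cKit+/DDR2+/CD45- members, against 5.82 CPM in fibroblast-gate and 0.364 CPM in endothelial-gate cells. Members of cKit-/DDR2+ had it at 88.5 CPM (50 UMIs), 19.2-fold (12.8 to 28.9) over fibroblast-gate and 79.9-fold (38.9 to 185) over endothelial-gate cells. Ntf3, neurotrophin 3, was 5.91-fold (2.33 to 16.9) over fibroblast-gate and 3.37-fold (1.93 to 5.50) over endothelial-gate cells in cKit+/DDR2+/CD45-, and 5.07-fold (3.74 to 6.77) and 2.19-fold (1.63 to 2.88) in cKit-/DDR2+. Igf1 and Bmp4, growth factor genes, were lower than in fibroblast-gate cells: Igf1 was at 14.2 CPM against 105 CPM in cKit+/DDR2+/CD45- cells and at 17.7 CPM against 252 CPM in cKit-/DDR2+.

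In the Notch pathway, 4 of 7 genes measured were higher than in fibroblast-gate cells and 2 of 9, the ligand gene Jag1 and the target gene Heyl, were higher than in endothelial-gate cells, with 0 lower. Measured through the members alone were 4 of the 7 and 2 of the 9, and of the others 0 were higher in either comparison. Jag1 was at 94.4 CPM in cKit+/DDR2+/CD45- members and 81.4 CPM in cKit-/DDR2+ members, against 25.0 to 37.4 CPM in the other gates. Heyl was at 80.2 CPM in members and 95 CPM in fibroblast-gate cells of cKit+/DDR2+/CD45-, and at 165 and 101 CPM in those of cKit-/DDR2+. Among 31 transcription factors, Tbx2 and Nr2f1 were higher than in both gates. Tbx2, a T-box repressor, was at 80.2 CPM in cKit+/DDR2+/CD45- members, 44.1-fold (21.7 to 88.6) over endothelial-gate cells, and at 181 CPM in cKit-/DDR2+ members, 21.3-fold (15.9 to 28.4) over fibroblast-gate and 16.9-fold (12.5 to 22.7) over endothelial-gate cells. The orphan nuclear receptor gene Nr2f1 was at 104 CPM in cKit+/DDR2+/CD45- members and 145 CPM in cKit-/DDR2+ members, against 6.37 to 13.6 CPM in the other gates. Tcf21, which marks fibroblasts of the heart, was at 33.0 CPM in cKit+/DDR2+/CD45- members against 508 CPM in fibroblast-gate cells and at 58.4 CPM in cKit-/DDR2+ members against 506 CPM. Of the 31, 17 were measured against fibroblast-gate cells, 7 of them higher and 4 lower, and 16 against endothelial-gate cells, 5 of them higher and 1 lower. In each comparison 5 were measured through the members alone. Of the other 12, 2 (Mef2c and Epas1) were higher than in fibroblast-gate cells, and of the other 11, 0 were higher than in endothelial-gate cells. Of 24 adhesion and junction genes, 6 of 12 measured were higher and 1 lower than in fibroblast-gate cells, and 2 of 12 (Gjc1 and Mcam) higher and 1 (Cd9) lower than in endothelial-gate cells. Measured through the members alone were 6 and 1 of them. Of the other 6, 1 (Itga1) was higher than in fibroblast-gate cells, and of the other 11, 1 (Mcam) was higher than in endothelial-gate cells. The adhesion list's median log2 ratio over fibroblast-gate cells was 2.05 in cKit+/DDR2+/CD45- and 2.34 in cKit-/DDR2+ for all members, and 0.59 and 0.49 for those with Cdh5 at 0, with 5 and 2 of the 12 genes so set. Gjc1, the gap junction gene of connexin 45, was at 179 CPM in cKit+/DDR2+/CD45- members and 338 CPM in cKit-/DDR2+ members, 7.02-fold (4.86 to 9.87) and 6.92-fold (5.79 to 8.25) over the endothelial-gate cells of those libraries.

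Matrix genes were lower than in fibroblasts as a group. Of 23 fibrillar and fibroblast matrix genes, 22 were measured against fibroblast-gate cells, 0 of them higher and 19 lower, with a median log2 ratio of -4.04 in cKit+/DDR2+/CD45- and -3.10 in cKit-/DDR2+. Dcn (decorin) was at 28.3 CPM in cKit+/DDR2+/CD45- members against 16026 CPM in fibroblast-gate cells, and at 235 CPM in cKit-/DDR2+ members against 22073 CPM. Of 20 basement membrane genes, 14 were measured against fibroblast-gate cells, 0 of them higher and 8 lower, among them the laminin genes Lama2, Lama4, Lamb1 and Lamc1, and 11 against endothelial-gate cells, 0 of them 2-fold apart in both libraries. The collagen IV gene Col4a1 was at 1345 CPM in members, 1226 CPM in fibroblast-gate and 709 CPM in endothelial-gate cells of cKit+/DDR2+/CD45-, and at 754, 620 and 996 CPM in those of cKit-/DDR2+. Mgp, matrix Gla protein, was at 2836 CPM in cKit+/DDR2+/CD45- members and 4225 CPM in cKit-/DDR2+ members, against 14420 and 12176 CPM in fibroblast-gate cells. In members with Cdh5 at 0, Mgp was at 5743 CPM for cKit+/DDR2+/CD45- and 8733 CPM for cKit-/DDR2+.

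Among the other lists, 10 of 22 immediate early and dissociation genes measured were lower than in fibroblast-gate cells and 2, the heat shock genes Hspa1a and Hspa1b, were higher, while 0 of 19 were 2-fold apart from endothelial-gate cells in both libraries. Of 11 glycolysis genes, 1 was higher (Pfkl) and 1 lower (Hk2) than in fibroblast-gate cells, and of 10 against endothelial-gate cells 1 (Tpi1) was higher. Antigen presentation gave 1 of 7 higher than fibroblasts (Psmb9) and 1 of 7 lower than endothelium (Cd74), and interferon response genes 2 of 5 higher than fibroblasts and 0 of 9 apart from endothelium. Against fibroblast-gate cells, Pfkl, Psmb9 and the interferon gene Gbp7 were measured through the members alone, and of these 3 lists' other genes only Bst2 was higher. The antigen presentation median log2 ratio over fibroblast-gate cells was 1.56 in cKit+/DDR2+/CD45- and 0.62 in cKit-/DDR2+. In members with Cdh5 at 0 it was -0.16 and -0.69, with 2 and 0 of the 7 genes set to 3 UMIs. The 12 endothelial markers gave 11 higher than in fibroblast-gate cells, 9 of the 12 measured through the members alone. Their median log2 ratio was 6.65 in cKit+/DDR2+/CD45- and 5.38 in cKit-/DDR2+. In members with Cdh5 at 0 the medians were 1.02 and 0.92. Of 10 proliferation genes, 0 were measured against fibroblast-gate cells. The 10 lowest genes relative to endothelial-gate cells held fibroblast markers such as Dcn and Lum. Endothelial-gate cells carried these markers too, with the whole list summing to 14308 CPM for the cKit-/DDR2+ library. In the cKit+/DDR2+/CD45- library their sum there was 2193 CPM. What part such RNA had in the ranks was not tested. Also among the 10 were Plvap, the gene of the diaphragm of fenestrated endothelium, and Npr3, an endocardial natriuretic peptide receptor gene. Plvap was at 4.72 CPM in cKit+/DDR2+/CD45- members against 588 CPM, and at 1.77 CPM in cKit-/DDR2+ members against 58.8 CPM. Npr3 was at 9.44 CPM against 1429 CPM for cKit+/DDR2+/CD45-, and at 3.54 CPM against 63.7 CPM for cKit-/DDR2+.

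**Figure D4:**
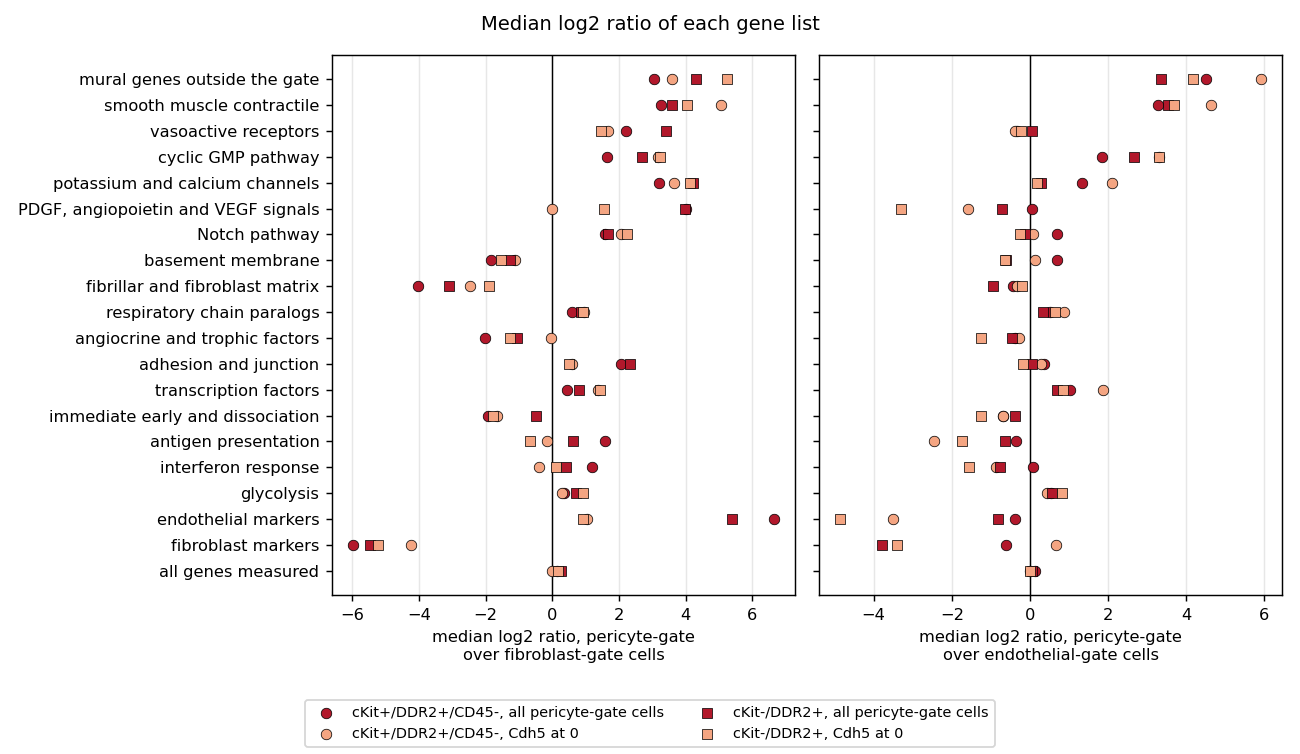
Median log2 ratio of each gene list, members over fibroblast-gate cells at left and over endothelial-gate cells at right, for cKit+/DDR2+/CD45- and cKit-/DDR2+, with all members and members with Cdh5 at 0 marked apart. The list of mural genes outside the rule lies between 3.05 and 5.92 in both panels, and the endothelial markers lie at -0.39 and -0.81 over endothelial-gate cells for all members and at -3.52 and -4.85 for those with Cdh5 at 0.

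Variation among the members was ranked outside the genes of the rule. Each cell was thinned to 2000 UMIs, which left 24 cKit+/DDR2+/CD45- and 74 cKit-/DDR2+ members, and genes were ranked by variance over mean, whose median was 0.91 over 3178 genes in cKit+/DDR2+/CD45- and 1.05 over 3294 genes in cKit-/DDR2+. Fabp4, a fatty acid binding protein gene of capillary endothelium, was highest in cKit+/DDR2+/CD45- with 32.8, followed by Malat1, a nuclear long noncoding RNA, with 30.3; in cKit-/DDR2+ Malat1 was highest with 27.5 and Fabp4 followed with 17.4. Fabp4 had a mean of 6.25 UMIs in cKit+/DDR2+/CD45- members with Cdh5 at 0 and 33.7 UMIs in those with Cdh5, and 4.38 and 25.3 UMIs in cKit-/DDR2+. Mgp ran the other way, at 12.0 UMIs with Cdh5 at 0 and 5.12 UMIs with Cdh5 in cKit+/DDR2+/CD45-, and 18.1 and 5.50 UMIs in cKit-/DDR2+. Of the rule itself, Rgs5 had a variance over mean of 13.8 in cKit+/DDR2+/CD45- and 6.46 in cKit-/DDR2+. Among contractile genes, Myh11 (UMIs in 1 cell) had 20, Tagln 16.0 and Acta2 10.1 in cKit+/DDR2+/CD45-, and in cKit-/DDR2+ Acta2 had 11.4 and Tagln 6.96. Fos, an immediate early gene, had 5.72 and Hspa1a 6.17 in cKit-/DDR2+.

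Between sorts, 190 of 3854 genes measured passed 2-fold upward in cKit+/DDR2+/CD45- members relative to cKit-/DDR2+ members (4.93%) and 279 downward (7.24%). Endothelial-gate cells of the same libraries had 176 higher (4.94%) and 230 lower (6.46%) of 3562 genes, and fibroblast-gate cells 32 higher (0.977%) and 47 lower (1.43%) of 3276. Of the members' genes, 28 higher and 57 lower also passed 2-fold on that side in endothelial-gate cells. Interferon response genes were mostly higher: 9 of 12 measured, among them Isg15, Iigp1 and Gbp2, were higher and 0 lower, with a median log2 ratio of 1.95 in members and 0.94 in endothelial-gate cells, against all-gene medians of -0.08 and -0.15. In members with Cdh5 at 0 the list's median was 0.00 with 5 of the 12 genes, at 0 in a sort, set to 3 UMIs, and -0.31 without that setting. Gbp2, a guanylate-binding protein gene, was at 321 CPM in cKit+/DDR2+/CD45- members and 54.9 CPM in cKit-/DDR2+ members, but at 0 and 30.2 CPM in those with Cdh5 at 0. Antigen presentation genes gave 6 of 8 higher and 0 lower, with a median of 1.28 in members, 0.97 in endothelial-gate cells and -0.12 in members with Cdh5 at 0, where 3 of the 8 genes were set to 3 UMIs (-0.86 without). B2m, the light chain of class I molecules, was at 2293 CPM in cKit+/DDR2+/CD45- members and 765 CPM in cKit-/DDR2+ members, and at 299 and 355 CPM in those with Cdh5 at 0.

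Immediate early genes were lower in cKit+/DDR2+/CD45- members, with 13 of 20 measured lower and 1 (Hspa1b) higher, a median of -1.12 in members, -0.56 in endothelial-gate cells and 0.02 in members with Cdh5 at 0, where 4 of the 20 genes were set to 3 UMIs (-0.03 without). Fos was at 198 CPM, from 14 of 25 cKit+/DDR2+/CD45- members, and at 919 CPM, from 58 of 77 cKit-/DDR2+ members. Mural genes outside the rule gave 0 of 22 higher and 8 lower in cKit+/DDR2+/CD45- members, where 7.24% of all genes measured were lower. Their median was -0.67 in all members and -0.49 in those with Cdh5 at 0. It was lower, at -1.07, in endothelial-gate cells, and 0 in fibroblast-gate cells, with 4 genes set to 3 UMIs. Art3, an ADP-ribosyltransferase gene, was at 170 CPM in cKit+/DDR2+/CD45- members and 381 CPM in cKit-/DDR2+ members, and Gja4 (connexin 37) at 70.8 and 305 CPM in those sorts. The fraction of members with Cdh5 was nearly the same in both sorts, at 64.0% in cKit+/DDR2+/CD45- and 64.9% in cKit-/DDR2+. These cells gave 175166 of the 211909 UMIs of cKit+/DDR2+/CD45- members and 432418 of the 564788 UMIs of cKit-/DDR2+ members. The endothelial markers summed to 19504 and 15771 CPM in all members of those sorts. The part of endothelial RNA in the differences between sorts was not tested.

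The largest differences between sorts often rested on few cells. Cxcl9, an interferon-gamma-induced chemokine gene, was at 274 CPM (58 UMIs in 6 cells, 43 of them in 1) in cKit+/DDR2+/CD45- members and 1.77 CPM (1 UMI) in cKit-/DDR2+ members. Without its top cell the cKit+/DDR2+/CD45- level was 75.7 CPM. Members with Cdh5 at 0 had 0 UMIs of Cxcl9, which by the limit of 3 UMIs allows up to 81.6 CPM for cKit+/DDR2+/CD45- and 22.7 CPM for cKit-/DDR2+. Vcam1, an adhesion molecule gene for leukocytes, was at 316 CPM in cKit+/DDR2+/CD45- members and 127 CPM without the top cell, against 7.08 CPM in cKit-/DDR2+ members, and its log2 ratio was 5.29 in members and 2.00 in endothelial-gate cells. With Cdh5 at 0, Vcam1 had 1 UMI in each sort, 27.2 CPM for cKit+/DDR2+/CD45- and 7.55 CPM for cKit-/DDR2+. Lars2, a mitochondrial leucyl-tRNA synthetase gene, was at 2010 CPM in cKit+/DDR2+/CD45- members and 285 CPM in cKit-/DDR2+ members, a log2 ratio of 2.81, and 3.01 in endothelial-gate cells. On the low side, Nt5dc2 was at 14.2 CPM (3 UMIs) in cKit+/DDR2+/CD45- members and 143 CPM (81 UMIs in 43 cells) in cKit-/DDR2+ members, a log2 ratio of -3.25, against -0.03 in endothelial-gate cells. Slc16a12, a monocarboxylate transporter family gene, was at 4.72 CPM (1 UMI) in cKit+/DDR2+/CD45- members and 53.1 CPM (30 UMIs in 18 cells) in cKit-/DDR2+ members.

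**Figure D5:**
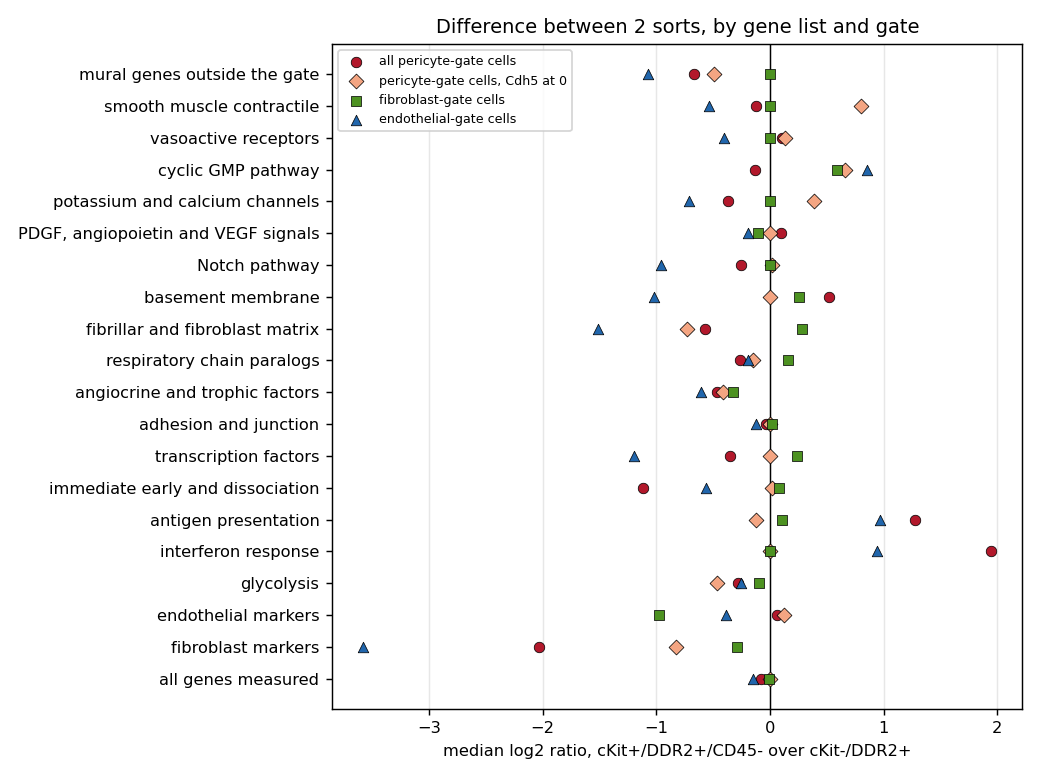
Median log2 ratio of cKit+/DDR2+/CD45- over cKit-/DDR2+ for each gene list, drawn apart for all members, members with Cdh5 at 0, fibroblast-gate and endothelial-gate cells; a value above 0 means higher in cKit+/DDR2+/CD45-. Interferon response lies at 1.95 and antigen presentation at 1.28 in all members, against 0.00 and -0.12 in members with Cdh5 at 0 (genes at 0 in a sort set to 3 UMIs), and immediate early genes lie at -1.12 in all members.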

How the data were processed

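The submitters used Cell Ranger with the build mm10 and Seurat 4.0.4, per the submitters' processing notes; the Cell Ranger version and the filters are not given in the sources used here. The deposited tables hold natural log values per cell; back-transformed, less 1, they add up to 10000 in every cell. The members and gates were cut on these natural log values, and a gene not listed in a table was treated as 0. UMIs were recovered from the values; in 100% of cells all values came out within 0.01 of a whole number.

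From these, UMIs were summed by gate and scaled to CPM, with Python 3.11.15, numpy 2.4.6, scipy 1.17.1 and matplotlib 3.10.9. A fold is a ratio of CPM with an exact 95% interval, and a gene counted as 2-fold apart when the log2 ratio after adding 1 CPM passed 1 in both libraries on the same side. Counts cover genes listed in both tables, the genes of the rule included. A gate at 0 was set to 3 UMIs, which gives a lower bound. Sorts were compared over members of cKit+/DDR2+/CD45- and cKit-/DDR2+, with 1 library each, so there is no test and no p-value. Replicates in the labels were not shown to come from separate animals. Intervals cover counting error only.

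The members, 26 gene lists and thresholds were chosen with earlier results of these data known. Genes named in the text are those of the rule, those of the lists, the 20 with the highest ratio over both gates, the 10 highest and 10 lowest against each gate and between sorts, and the 10 most variable among cells; haemoglobin, mitochondrial, ribosomal, predicted and sex-linked genes and those of the rule were left out of the ranks. No doublet caller was run; members with Cdh5 at 0 and members without the deepest cells were used as alternatives. The calculation was tested on simulated data. Promoter windows are from RefSeq (GRCm38.p6), where 48 of 71 genes looked up were matched; Ndufa4l2, Cox4i2 and Higd1b were not. Results of some genes are not reported here.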

Additional observations from a re-analysis of the deposited data

Results flagged for a closer look

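Members lay on opposite sides of another gate in the cKit+/DDR2+/CD45- and cKit-/DDR2+ libraries for 8 genes; the difference between the sorts was not tested, since each has 1 library. Against fibroblast-gate cells the log2 ratios in cKit+/DDR2+/CD45- and cKit-/DDR2+ were 4.70 and -3.15 for Cd74, the invariant chain of class II molecules, -1.15 and 1.31 for Fbxo22, and -1.03 and 1.69 for the matrix gene Postn. Cd74 rested on 16 UMIs (75.5 CPM) in cKit+/DDR2+/CD45- members against 1 UMI in fibroblast-gate cells, and on 3 UMIs (5.31 CPM) in cKit-/DDR2+ members against 55.2 CPM. Postn was at 146 CPM in cKit+/DDR2+/CD45- members and 166 CPM in cKit-/DDR2+ members, while fibroblast-gate cells were at 301 CPM for cKit+/DDR2+/CD45- and 51.0 CPM for cKit-/DDR2+.

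Against endothelial-gate cells the log2 ratios in cKit+/DDR2+/CD45- and cKit-/DDR2+ were 1.30 and -1.35 for the apelin receptor gene Aplnr, 2.29 and -1.43 for Col3a1, -2.05 and 1.71 for Ctgf, 1.17 and -1.01 for Rsad2, and 1.77 and -2.64 for Slamf1. For Col3a1 the members were alike, at 127 CPM for cKit+/DDR2+/CD45- and 156 CPM for cKit-/DDR2+, and the endothelial-gate cells differed, at 25.3 CPM for cKit+/DDR2+/CD45- and 422 CPM for cKit-/DDR2+. For Slamf1, 15 of 19 UMIs in cKit+/DDR2+/CD45- members came from 1 cell, and for Rsad2, 11 of 17 UMIs in cKit-/DDR2+ members did.

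Members were also found in libraries that entered no comparison. The 9 members of cKit+/DDR2- replicate 2 had Ndufa4l2 at 1432 CPM and Rgs4 at 706 CPM, and the 8 members of cKit+/DDR2+/CD45+ had them at 1264 CPM and 341 CPM. Macrophage markers summed to 1966 CPM in these cKit+/DDR2+/CD45+ members, with 0 of the 8 cells at 0 and the lowest at 1378 CPM, and to 182 CPM in the members of cKit+/DDR2- replicate 2. The other gates of cKit+/DDR2+/CD45+ were higher, at 3049 CPM in fibroblast-gate and 11922.5 CPM in endothelial-gate cells. In cKit+/DDR2- replicate 2 those gates were at 138 and 414 CPM.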

How the results depend on the processing

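Counts of genes moved with the members used and the level asked for, and some directions of single genes with the library. With members at Cdh5 of 0 only, 46 of the 119 cells remained. Genes higher than in fibroblast-gate cells then numbered 129 instead of 473, with 102 shared, and genes lower than in endothelial-gate cells 430 instead of 61, with 57 shared. Between sorts 69 instead of 190 were higher and 640 instead of 279 lower in cKit+/DDR2+/CD45-. Of the 3854 genes measured between sorts, 500 were at 0 in a sort among these members, so the counts of lower genes are limited by depth. At a minimum of 100 CPM the counts against fibroblast-gate cells were 277 higher and 250 lower, and against endothelial-gate cells 75 and 27; without a CPM minimum 667 were lower than in fibroblast-gate cells and 703 lower than in endothelial-gate cells. When only 1 library was used, the counts ranged from 670 to 858 higher and 496 to 697 lower against fibroblast-gate cells, and from 248 to 367 higher and 199 to 300 lower against endothelial-gate cells, and without a library 42 to 119 members were left. Adding 10 CPM, centring on the median, averaging over cells, asking for 5 of the genes and leaving out cells above the 95th percentile of UMIs kept the counts within 1.5 times.

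Of 1230 values of single genes under alternatives, 1204 kept their direction, 759 lay within the counting interval and 4 reversed. All 4 were for Cd74: against fibroblast-gate cells its log2 ratio was -1.56 in cKit+/DDR2+/CD45- members with Cdh5 at 0, and with the libraries taken singly 4.70 in cKit+/DDR2+/CD45- and -3.15 in cKit-/DDR2+; between sorts it was -3.10 in members with Cdh5 at 0. The cause was not tested. No paired analysis was possible because each sort compared has 1 library and the labels give no shared replicate numbers. Depth limits most the 9 cKit+/DDR2+/CD45- members with Cdh5 at 0, where 3 UMIs correspond to 81.6 CPM.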
